A study of Mus musculus with 4 samples.

Results

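Cytosolic ribosomal proteins are the protein components of the ribosome, the particle that translates mRNA in the cytosol. Its small subunit (40S) is built with the Rps proteins and reads the mRNA, and its large subunit (60S) is built with the Rpl proteins and joins the amino acids. Chondrocytes secrete large amounts of collagen and proteoglycan and so depend on a high rate of translation, and the unfolded protein response, of which the transcription factor XBP1 is an effector, adjusts that load when misfolded proteins gather in the endoplasmic reticulum. The genes were chosen by their symbols alone (Rpl or Rps and a number, with the paralogs that carry a further letter, and the stalk genes Rplp0, Rplp1 and Rplp2), without the kinases of ribosomal protein S6 and without regard to their signals. Of 18193 genes with a probe set of their own, 48 matched, 26 of the large and 22 of the small subunit.

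The 4 arrays held RNA of rib (costochondral) chondrocytes of mice aged 5 days on a C57BL6/J background, 1 array for each genotype, with RNA of 3 extractions pooled on an array. The wild type (Xbp1 WT) carried neither change. The XBP1 null (Xbp1 Col2CreΔex2) lacked exon 2 of Xbp1 through a Cre recombinase driven by Col2a1, which acts in chondrocytes and leaves Xbp1 in cells that do not use that promoter. The Matn3 mutant (Xbp1 WT Matn3 V194D) was homozygous for a knock-in of p.V194D in matrilin-3, a cartilage matrix protein, and models multiple epiphyseal dysplasia. The double mutant (Xbp1 Col2CreΔex2 Matn3 V194D) carried both. Values are linear signals, taken as log2 after signals under 1 had been set to 1. With 1 array per genotype the comparisons of arrays have no test and no error.

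Each of the 14 chondrocyte genes measured had signals far above the median of 43.8 on every array, with no other tissue for comparison. Summed over the 14, the signal was 146737 on the wild type array, 157306 on the XBP1 null, 161131 on the Matn3 mutant and 170645 on the double mutant. Not every gene followed this sum. Xbp1 itself gave 8183, 7877, 11403 and 9548 in the same order, and Matn3 gave 10185, 9945, 10462 and 10572. The array reads the 3′ ends of transcripts and a knock-in leaves the transcript in place, so neither signal checks its label. Markers of other cells differed between the arrays. The summed signal of 9 endothelial genes was 73.0 on the wild type array, 4943 on the XBP1 null, 578 on the Matn3 mutant and 1080 on the double mutant. That of 7 fibroblast and perichondrium genes ran from 50458 on the Matn3 mutant to 70796 on the XBP1 null, that of 10 leukocyte genes from 2555 on the wild type to 6931 on the XBP1 null (Cd3e, a T cell marker, was under 1 on all 4 arrays), that of 5 osteoblast genes from 2627 to 7826, that of 8 muscle genes from 1963 to 3080 and that of 4 erythroid genes from 23.6 to 210. The part of these cells in the values below was not tested. In RNA of mixed cells, fewer cells of a type and less RNA per cell cannot be told apart.

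Most mRNAs of ribosomal proteins begin with a C followed by an unbroken stretch of pyrimidines, the 5′ terminal oligopyrimidine (TOP) tract, through which their translation is held or released as a set under mTORC1. The start of 42 of the 48 genes was found in RefSeq sequences of build GRCm38.p6, and 30 bases were read at each, 10 before and 20 from the annotated start on. In 34 of the 42 that start is also the first base of the gene. The sequences below belong to genes that return in the results, written 5′ to 3′ on the strand of the gene, with the longest unbroken run of C and T in capitals. Rplp2, Rpl13a, Rpl38 and Rps10 are 4 of the genes whose representing probe set shared the common pattern of the arrays and which have long runs, Rps28 is one that shared it with a short run, Rplp0, Rpl27a, Rps6 and Rpl7l1 departed from it, and Rpl22l1 barely differed between the arrays.
Rplp2 (chr7:141447641-141447670, plus strand): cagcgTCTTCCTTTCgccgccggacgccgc
Rpl13a (chr7:45128726-45128755, minus strand): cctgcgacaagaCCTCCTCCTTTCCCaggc
Rpl38 (chr11:114668570-114668599, plus strand): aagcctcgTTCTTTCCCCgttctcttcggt
Rps10 (chr17:27635225-27635254, minus strand): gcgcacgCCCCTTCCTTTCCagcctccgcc
Rps28 (chr17:33824543-33824572, minus strand): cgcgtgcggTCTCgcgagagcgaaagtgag
Rplp0 (chr5:115559457-115559486, plus strand): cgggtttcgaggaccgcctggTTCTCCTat
Rpl27a (chr7:109519185-109519214, plus strand): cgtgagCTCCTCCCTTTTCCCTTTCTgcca
Rps6 (chr4:86857348-86857377, minus strand): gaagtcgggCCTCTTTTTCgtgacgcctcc
Rpl22l1 (chr3:28805498-28805527, plus strand): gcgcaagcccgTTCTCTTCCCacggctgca
Rpl7l1 (chr17:46782637-46782666, minus strand): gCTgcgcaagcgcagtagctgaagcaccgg

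Over the 42 starts the longest run had a median of 7 bases, against 4 over 27025 promoters of the same table. A run of at least 8 stood in 16 of the 42 (38.1%) and in 11.2% of all promoters, and a run of at least 6 in 25 (59.5%) and in 28.6%. The letters CTTTC, common in such tracts, stood on the strand of the gene in 11 of the 42 windows (26.2%), among them those of Rplp2, Rpl13a, Rpl38, Rps10 and Rpl27a, and in 3.66% of all windows. In the 300 bases from 250 before to 50 after the start, CCGGAAG, the core that ETS family factors bind, was found on either strand in 20 of 42 promoters (47.6%) against 9.12% of all. GCATGCGC, a part of the site of NRF1, stood in 1 of 42 (2.38%) against 2.80%. The runs, searched on the strand of the gene, contain some of the CTTTC matches. The motifs were picked after the sequences had been read, and a match describes these letters only.

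The 48 genes fell into a group with high signals and a group with low signals, with a gap between. In 34 the mean log2 signal over the 4 arrays was 12.48 or more, and in the other 14 it was 10.79 or less, where the median of all genes was 6.80. Probe sets bind with unlike strength, so the order of signals among genes is not an order of mRNA level, and the split is used here because differences are noisier at low signals. The highest signal among the members was that of Rps29 (chr12:69157722-69159186), a small zinc-binding protein of the 40S head, with 18368 on the wild type array, 20259 on the XBP1 null, 23629 on the Matn3 mutant and 24498 on the double mutant. On the last 2 arrays it was the highest signal of all probe sets. The next were Rps28, Rps3a1, Rps20 and Rplp2, whose signals on the wild type array were 17116, 16735, 16699 and 16322. At the other end Rps16, a core 40S protein, was under 1 on all 4 arrays, and Rpl3l, the muscle paralog of Rpl3, lay between 0.20 and 2.39. A probe set at the floor gives no direction, so Rps16, read by 1 probe set, enters no statement on one. Nor does such a signal show that the transcript was absent.

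The common finding was a small and even difference in 1 direction. Among the 34 genes with high signals, 32 were above the wild type on the Matn3 mutant array, by a median of 0.18 on the log2 scale or 1.14-fold (SD over genes 0.18). On the XBP1 null array 33 of 34 were above the wild type, with a median of 0.14 or 1.10-fold (SD 0.07). All 34 were higher on the double mutant than on the Matn3 mutant array, with a median of 0.15 or 1.11-fold (SD 0.07), and 33 of 34 were higher on the double mutant than on the XBP1 null, with a median of 0.19 or 1.14-fold (SD 0.12). Much of this was shared with other genes. The 633 other genes with a mean log2 signal of 12 or more had medians of 0.07, 0.14, 0.13 and 0.06 in these comparisons, with 58.5%, 70.9%, 77.9% and 61.8% above 0. All genes had medians of 0.00, 0.09, 0.15 and 0.00, with 46.3%, 56.4%, 63.5% and 48.0% above 0. In the comparisons of XBP1 the medians of the 34 were thus close to those of the other genes with high signals. From wild type to double mutant the median was 0.31 over the 34, 0.22 over the other genes with high signals and 0.13 over all genes. Rps28, which sits by the mRNA exit of the 40S, is an example with signals of 17116 on the wild type, 18080 on the XBP1 null, 21218 on the Matn3 mutant and 22848 on the double mutant. Rpl13a, a 60S protein also known as a regulator of translation in interferon responses, had 15083, 17440, 18609 and 20598 by the probe set that represents it, though not by all of its probe sets. Rpl38, needed for the translation of certain Hox mRNAs in the axial skeleton, had 14945, 16689, 18071 and 19213. In each of these the wild type was lowest and the double mutant highest.

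**Figure D1:**
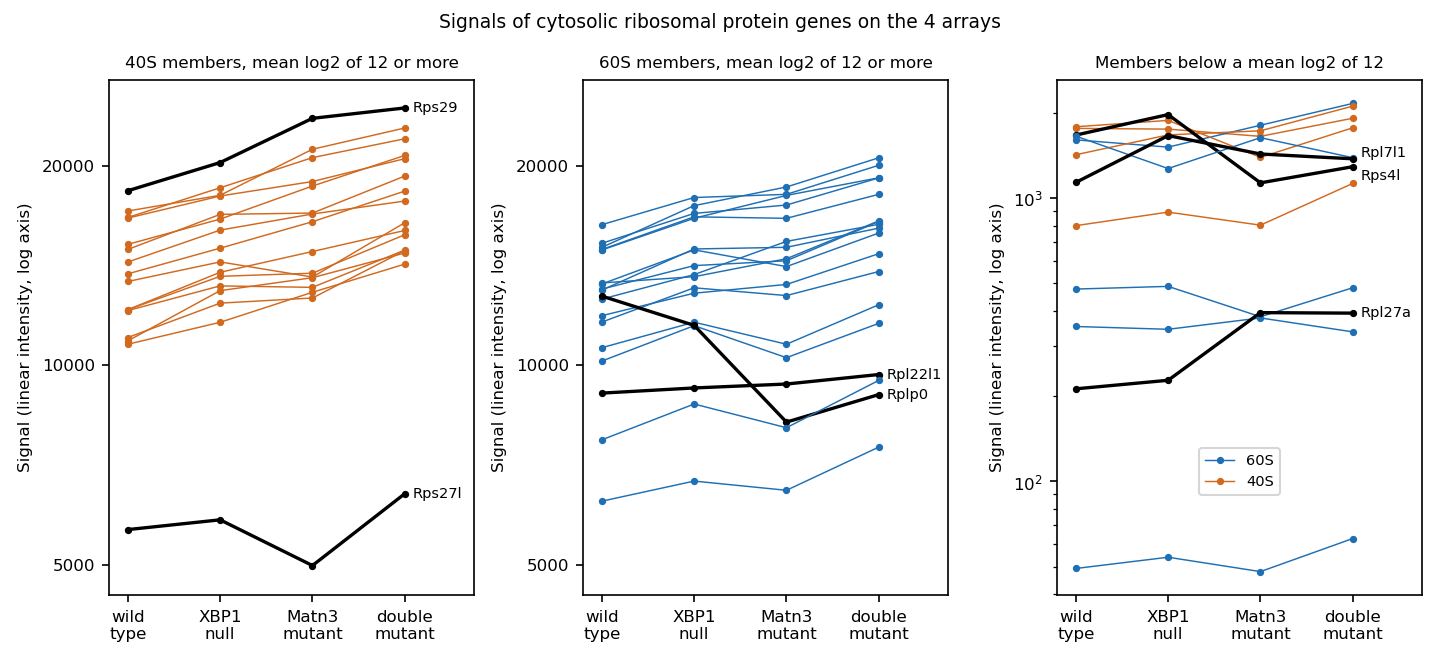
Signals of the ribosomal protein genes (linear intensity on a log axis) on the 4 arrays, 1 line for each gene, with 40S genes in orange, 60S genes in blue and labelled genes in black; the horizontal axis holds the arrays in the order of the text. Nearly all lines of the first 2 panels end higher than they start, from 18368 to 24498 in Rps29, while Rplp0 drops from 12730 to 9037. In 23 of these 34 genes the line climbs at every step. Rps16 and Rpl3l, at or near the floor, are not drawn.

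The arrays followed the same order in most of these genes. In 23 of the 34 the signal went up from wild type to XBP1 null to Matn3 mutant to double mutant, an order seen in 7.39% of all genes. This order was not among the planned results. It is that of the medians of the 34 themselves, so the share is a description and not a test. Among the 633 other genes with high signals the order was seen in 99 (15.6%). Among the 25 other genes with signals at or above the median of the 34, however, it was seen in 17 (68.0%). Those 25 genes differed by medians of 0.28 between Matn3 mutant and wild type, 0.16 between XBP1 null and wild type, 0.04 between double and Matn3 mutant, and 0.17 between double mutant and XBP1 null. The 25 lie outside the 48 but include genes of translation (Rpsa, Eef1a1, Tpt1) beside matrix genes (Comp, Col9a1). Those named all had this order. The order is thus shared with other transcripts at the top of the range. The highest signal of an array went from 18520 on the wild type over 20751 and 23629 to 24498, while the medians of the arrays were nearly equal (43.8 each). The last 2 of these highest signals are those of Rps29 itself, 1 of the 34. With quantile normalization, which makes the arrays equal over the whole range, the medians of the 34 were 0.02, 0.04, 0.04 and 0.02 in the order of comparisons above. With the arrays centred on the genes with the highest signals, the top 10%, they were 0.13, -0.07, 0.01 and 0.22, so that the sign for the XBP1 null turned. Of all 48 genes 24 showed the order as deposited, 7 after quantile normalization and 1 after such centring. The last centring moved the median of all genes from 0.09 to -0.12 for the XBP1 null against the wild type and from 0.15 to 0.02 for the double against the Matn3 mutant.

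The spread of these differences was narrow. Between Matn3 mutant and wild type the log2 differences of the 34 had an SD of 0.18, against 0.37 over the 633 other genes with high signals. Between XBP1 null and wild type the SD was 0.07 against 0.31, between double and Matn3 mutant 0.07 against 0.23, and between double mutant and XBP1 null 0.12 against 0.27. The 25 other genes of the highest signals were nearer to them, with SDs of 0.17, 0.09, 0.12 and 0.15. After quantile normalization these SDs of the 34 were 0.15, 0.08, 0.05 and 0.10, and centring an array leaves them as they are. The interaction, by which the effect of losing XBP1 in the Matn3 mutant exceeded that in mice without the mutation, had a median of 0.02 over the 34 with an SD of 0.10, against an SD of 0.42 over the other genes with high signals. The spread is over genes, not over mice. No test was made of it.

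**Figure D2:**
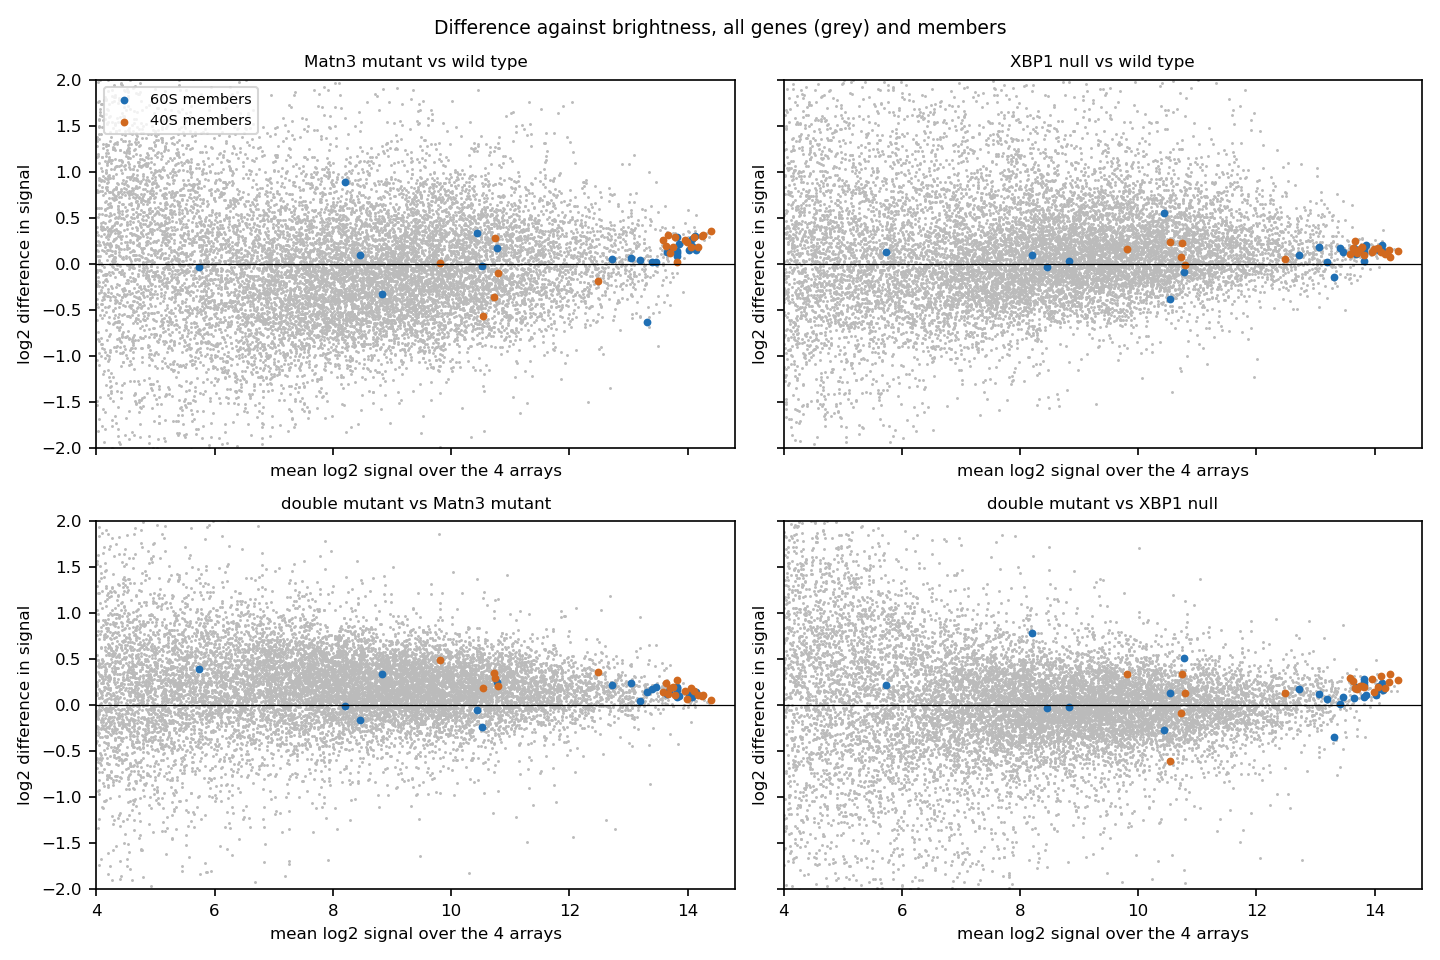
Difference in signal on the log2 scale (vertical axis) against the mean log2 signal over the 4 arrays (horizontal axis) in the 4 comparisons, with each gene in grey and the ribosomal protein genes in blue (60S) and orange (40S). The 34 genes with a mean of 12.48 or more form a tight cluster just above 0 at the right edge, with Rplp0 apart below it in the panels on the Matn3 mutation; genes with a mean below 4 (Rps16 and Rpl3l among them) and differences beyond 2 lie outside the axes.

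Against this background few of the genes passed a 1.5-fold difference, the size used in the study's own analysis. Between Matn3 mutant and wild type 1 of 48 was higher (Rpl27a), where 21.2% of all genes were, and 2 were lower (Rplp0 and Rpl3l), where 19.3% were. The count of Rpl3l, here and below, compares signals of 1.91 and 2.39 with the floor of 1 or values near it, gives no direction, and is lost with a floor at the 25th percentile. Between XBP1 null and wild type none was higher or lower, where 23.3% and 11.5% of all genes were. Between double and Matn3 mutant again none was, against 17.4% and 9.03%. Between double mutant and XBP1 null 1 was higher (Rpl27a) against 16.6%, and 2 were lower (Rps4l and Rpl3l) against 16.9%. At a 1.2-fold difference 12 were higher and 5 lower between Matn3 mutant and wild type (33.3% and 34% of all genes), 2 and 1 between XBP1 null and wild type (37.8% and 22.8%), 7 and none between double and Matn3 mutant (39.4% and 16.5%), and 11 and 4 between double mutant and XBP1 null (28.9% and 28.8%). In every comparison and direction the share of the 48 lay below that of all genes. Genes with low signals, where differences are wide, make up more of the whole than of these 48. Of the 633 other genes with high signals, 0.32% to 8.21% passed 1.5-fold, depending on comparison and direction. Of the 34, only Rplp0 did, between Matn3 mutant and wild type. At both folds the shares of the 34 lay below those of the 633, except for genes 1.2-fold higher between double mutant and XBP1 null. There 7 of the 34 (21%) were higher, against 94 of the 633 (15%).

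An additive model of both changes over all 4 arrays was the only test that the design allows, with 1 residual degree of freedom. In limma, with p adjusted over all 45037 probe sets, it called none of the 48 genes and none of the probe sets, for the Matn3 mutation (0%) or for the loss of XBP1 (0%). At an unadjusted p under 0.05 it held 3 of the 48 genes for the Matn3 mutation (6.25%, against 7.51% of all probe sets) and 0 for the loss of XBP1 (against 4.56%). The 3 were Rpl27a, with a log2 effect of 0.84 (SE 0.11, adjusted p = 0.635 by limma), Rps4l, with -0.59 (SE 0.09), and Rpl3l, whose effect and error are set by the floor of 1 and are not given. The median effect over the 48 was 0.17 for the mutation and 0.15 for loss of XBP1. A p that misses the threshold in so small a design does not show that the genes were alike between genotypes.

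The subunits were close to each other in the comparisons of XBP1. For XBP1 null against wild type the median was 0.14 in the 16 genes of the small and 0.14 in the 18 genes of the large subunit with high signals, and for double against Matn3 mutant it was 0.15 in both. In the comparisons of the Matn3 mutation the small subunit stood higher, with a median of 0.25 against 0.14 between Matn3 mutant and wild type and of 0.21 against 0.14 between double mutant and XBP1 null. With quantile normalization the first pair became 0.03 and 0.00 and the second 0.05 and 0.01. Between Matn3 mutant and wild type the largest positive differences were those of Rpl27a (0.89), Rps29 (0.36), Rpl7l1 (0.33), Rps14 (0.32), the 40S protein lost in 5q- syndrome in people, and Rps28 (0.31). Between XBP1 null and wild type they were those of Rpl7l1 (0.55), Rpl3l at the floor, Rps14 (0.25), Rps4l (0.24) and Rps25 (0.23), which some viral mRNAs need to recruit the ribosome. For double against Matn3 mutant they were those of Rps2 (0.49), Rpl39l (0.39), Rps27l (0.36), Rps6 (0.35) and Rpl14 (0.34), of which only Rps27l has a high signal. For double mutant against XBP1 null they were those of Rpl27a (0.79), Rpl37 (0.51), Rps28 (0.34), Rps2 (0.34) and Rps25 (0.34).

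Of the stalk genes, which encode the flexible arm of the 60S that calls in elongation factors, Rplp0 and Rplp2 were measured by probe sets of their own. They differed in opposite directions in 3 comparisons and by nearly the same amount in that of double with Matn3 mutant. Rplp0 (chr5:115559467-115563729), the base of the stalk and a gene often used as the reference in quantitative PCR, gave 12730 on the wild type array, 11499 on the XBP1 null, 8212 on the Matn3 mutant and 9037 on the double mutant. Both arrays with the Matn3 mutation were below both arrays without it. The log2 difference was -0.63 (1.55-fold lower) between Matn3 mutant and wild type, -0.35 between double mutant and XBP1 null, -0.15 between XBP1 null and wild type and 0.14 between double and Matn3 mutant. In the additive model its effect of the Matn3 mutation was -0.49 with an SE of 0.16 (adjusted p = 0.635 by limma). Rplp2 (chr7:141447651-141451359), which with Rplp1 makes up the tip, gave 16322, 17940, 18138 and 20068, in the common order. Rplp0 was the 1 gene of the 34 below the wild type on all 3 other arrays. It rests on 1 probe set.

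The other gene of high signal below the wild type on the Matn3 mutant array was Rps27l (chr9:66944624-66949522), a paralog of Rps27 and a target of p53. It gave 5650 on the wild type, 5845 on the XBP1 null, 4986 on the Matn3 mutant and 6402 on the double mutant, so the Matn3 mutant alone lay below the wild type. Its 3 probe sets were alike, from -0.20 to -0.14 between Matn3 mutant and wild type and from 0.36 to 0.46 between double and Matn3 mutant. Its interaction of 0.31 was the largest of the 34. Rps27, the core gene, gave 1762, 1751, 1651 and 1913, with the same array lowest and the same array highest.

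Among the paralogs of core genes, some of which replace the usual protein in some tissues, 6 were measured, and their values were mixed. The SDs of their differences were 0.46, 0.20, 0.18 and 0.55 in the 4 comparisons, near those of all 14 members with low signals (0.43, 0.22, 0.22 and 0.49), and include Rpl3l at the floor. Rpl22l1, the paralog of Rpl22, was flattest of the 34 with 9084, 9248, 9376 and 9691, while Rpl22 gave 13046, 14156, 14396 and 16502. Rps4l, an autosomal paralog of Rps4x, gave 1669, 1971, 1132 and 1290, with both arrays of the Matn3 mutation below both without it. Its differences were -0.56 between Matn3 mutant and wild type and -0.61 between double mutant and XBP1 null, against 0.24 and 0.15 for its core gene Rps4x, which gave 14334, 16016, 16941 and 17720. Rpl7l1 gave 1135 on the wild type, 1662 on the XBP1 null, 1431 on the Matn3 mutant and 1376 on the double mutant, so that the wild type alone was low. Its 3 probe sets were 0.48 to 0.60 higher on the XBP1 null than on the wild type array, and its core gene Rpl7 differed there by 0.03. Rpl39l, known from the testis, gave 49.3, 54.0, 48.1 and 62.9, and its core gene Rpl39 gave 352, 344, 378 and 337. Of the genes on the X chromosome, Rps4x followed the common order and Rpl39 did not.

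Among the remaining genes with low signals, 1 passed 1.5-fold. Rpl27a (chr7:109519195-109522369), a 60S protein, gave 212 on the wild type, 228 on the XBP1 null, 394 on the Matn3 mutant and 393 on the double mutant. Both arrays with the mutation were above both without it, by 0.89 between Matn3 mutant and wild type and by 0.79 between double mutant and XBP1 null. A further probe set of the gene near the floor gave -0.87 for the latter, so the median over both was -0.04. Rps6, whose phosphorylation reports the activity of mTORC1, gave 1785, 1880, 1392 and 1770, and Rpl14 gave 477, 488, 381 and 483, both with the Matn3 mutant lowest. Rpl12, a stalk base protein, gave 1654, 1271, 1634 and 1388, with the arrays that lack XBP1 below the others, at -0.38 between XBP1 null and wild type and -0.23 between double and Matn3 mutant. Rpl37 gave 1605, 1513, 1807 and 2158, Rps25 gave 1422, 1671, 1728 and 2111, and Rps2, a 40S protein at the entry of the mRNA channel, gave 799, 892, 802 and 1127. All 3 were highest in the double mutant. Over the 14 genes with low signals the medians were -0.01, 0.09, 0.20 and 0.06 for the 4 comparisons in the order above, with SDs from 0.22 to 0.49.

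Several of the genes are read by more than 1 probe set, which allows a look at how far separate probe sets of a gene give the same result. Of the 48 genes 23 have more than 1, and 103 probe sets name a member alone. For the 62 of them with a mean log2 signal of 12 or more, the medians were 0.18, 0.13, 0.15 and 0.19, with 54, 61, 61 and 59 above 0 and 1 (that of Rplp0) past 1.5-fold. Of all 1111 probe sets with such signals 62.9%, 73.7%, 79.3% and 66.5% were above 0. Over 1.5-fold higher were 5.94%, 6.30%, 1.62% and 1.53% of them, and lower 3.60%, 0.27%, 0.90% and 2.34%. For the 41 of the 103 below 12, 12 were over 1.5-fold higher and 2 lower between Matn3 mutant and wild type, 5 and 0 between XBP1 null and wild type, 3 and 2 between double and Matn3 mutant, and 4 and 4 between double mutant and XBP1 null. Of all probe sets below 12, 22.4% were higher and 21.2% lower in the first of these, 22.0% and 17.96% in the next, 16.2% and 15.7% in that of double with Matn3 mutant and 18.5% and 19.9% in the last. Rps28 (0.29 to 0.31 over 3 probe sets) and Rps29 (0.28 to 0.36 over 3) were the same from one probe set to the next for Matn3 mutant against wild type. In Rpl41, the smallest of the ribosomal proteins, 4 probe sets ran from -0.63 to 0.67 in that comparison, of which the one with the highest signal gave 0.06. The 4 probe sets of Rpl13a ran from -0.27 to 0.30 there. Besides the one that represents the gene, another followed the common order with 9534, 11039, 11581 and 13049, one gave 6911, 7222, 6837 and 5982, and one went down through the arrays with 3955, 3521, 3285 and 2423. In Rps6 the 2 probe sets gave -0.36 and 0.62, so its lower signal on the Matn3 mutant array is that of 1 probe set. In Rps3 they ran from -0.14 to 0.67, with the lowest from a probe set near the floor.

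**Figure D3:**
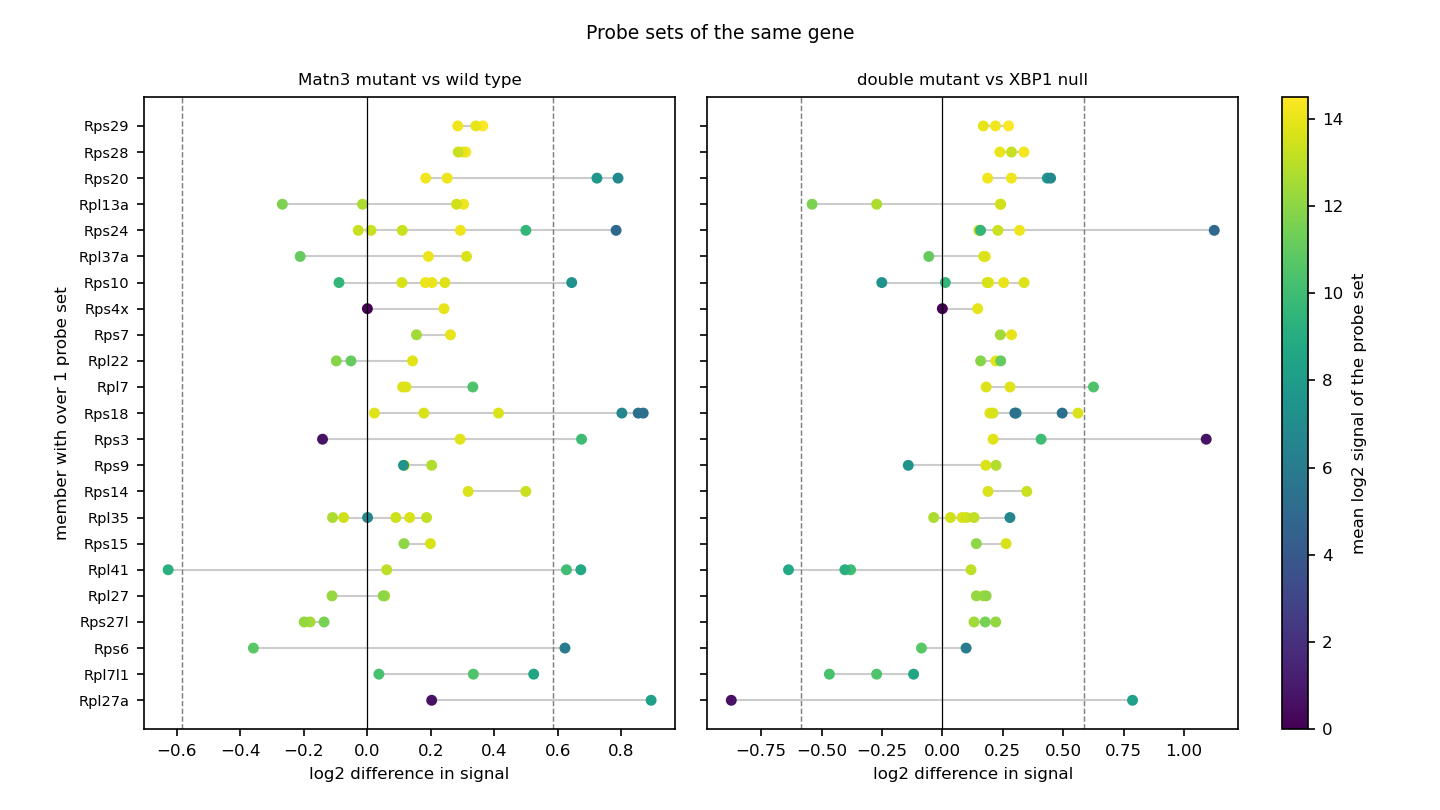
Difference in signal on the log2 scale (horizontal axis) of each probe set of the 23 genes with more than 1, for Matn3 mutant against wild type and double mutant against XBP1 null; the colour gives the mean log2 signal of the probe set and dashed lines mark 1.5-fold. Points of probe sets with a mean log2 of 12 or more run from -0.20 to 0.50 in the left panel and from -0.27 to 0.56 in the right, and darker points from -0.63 to 0.89 and from -0.87 to 1.13.

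A further 110 probe sets name a ribosomal protein gene together with other genes, such as pseudogenes whose sequence it shares, and 28 symbols of the family are named in that way only. They cannot be given to 1 gene and are described as a group. The 76 of them with high signals had medians of 0.19, 0.12, 0.15 and 0.20 for the 4 comparisons, none past 1.5-fold, with 69, 73, 75 and 72 above 0 and 61 in the common order. The shares over all 1111 probe sets with high signals are those given above, and the order was seen in 15.6% of the 633 other genes with high signals. They share sequence with the genes described, so they are not a separate measurement of the cells.

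The other genes of translation showed how far the pattern went. Rpsa and Fau, ribosomal proteins that do not carry the usual symbols, behaved as the rest: Rpsa gave 13484, 15159, 15661 and 17195, and Fau gave 11663, 13292, 12257 and 14758. Both are counted among the 633 other genes with high signals. Of 16 elongation factors and other genes with TOP mRNAs none passed 1.5-fold in any comparison, and their medians were 0.12, 0.15, 0.13 and 0.10. Like those of the ribosomal proteins, these went to between 0.00 and 0.03 with quantile normalization.

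The genes that build the ribosome did not have the same pattern as its proteins. Of 30 genes for the transcription of ribosomal RNA and the assembly of subunits, 9 were over 1.5-fold higher between Matn3 mutant and wild type. That was 30%, against 21.2% of all genes. Only 1 was lower (3.33%, against 19.3%), and the median was 0.39. Between XBP1 null and wild type 10 were higher (33.3%, against 23.3%) and none lower (against 11.5%), with a median of 0.45. Between double and Matn3 mutant 2 were lower (6.67%, against 9.03%), with a median of -0.15 where that of all genes was 0.15. Between double mutant and XBP1 null 4 were lower (13.3%, against 16.9%), with a median of -0.15. The shares lower in the last 2 comparisons were below those of all genes, so what differs there is the median. Tsr1, which matures the 40S, gave 1730 on the wild type array and 4038, 3903 and 3505 on the XBP1 null, the Matn3 mutant and the double mutant. Nip7, needed for the processing of ribosomal RNA, gave 1099, 2440, 2279 and 1849. Polr1b, the large second subunit of RNA polymerase I, gave 128, 282, 395 and 197. In all 3 the wild type was lowest. Rrp9, which belongs to the U3 particle, went another way with 152, 219, 27.2 and 29.3, low on both arrays of the Matn3 mutation. Under the scalings tried the medians of these 30 genes kept their signs, at 0.34 to 0.46, 0.24 to 0.45, -0.29 to -0.15 and -0.15 to -0.09. The first 2 of these comparisons share the wild type array, and the last 2 share the double mutant array. Summed over the 30 genes, the wild type signal was 36123, against 437301 over the 34 ribosomal protein genes with high signals. The part of signal level in the contrast was not tested.

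Mitochondrial ribosomal proteins, which are encoded in the nucleus and translate the mRNAs of the mitochondrion, differed from the cytosolic ones on the Matn3 mutant array. Of 76 genes 20 were over 1.5-fold lower between Matn3 mutant and wild type (26.3%, against 19.3% of all genes). Only 1 was higher (1.32%, against 21.2%). The median was -0.37, where that of the 48 cytosolic genes was 0.15. Between double and Matn3 mutant 12 were higher (15.8%, below the 17.4% of all genes) and none lower (against 9.03%). The median was 0.31, where that of all genes was 0.15. Between XBP1 null and wild type 3 were higher and 2 lower (3.95% and 2.63%, against 23.3% and 11.5% of all genes), with a median of 0.00. Between double mutant and XBP1 null 2 were higher and 1 lower (2.63% and 1.32%, against 16.6% and 16.9%), with a median of -0.06. Mrpl34 gave 646, 415, 246 and 424, Mrpl18 gave 795, 708, 400 and 563, and Mrpl55 gave 276, 262, 142 and 328 on the arrays in the order given before. Each was lowest in the Matn3 mutant. Mrps2 was the 1 gene over 1.5-fold higher there, with 369, 695, 643 and 546. Under the scalings tried the median between Matn3 mutant and wild type lay between -0.42 and -0.32, and that between double and Matn3 mutant between 0.17 and 0.31. That between XBP1 null and wild type moved from 0.00 to -0.16 with quantile normalization and to -0.22 with centring on the top 10%, and that between double mutant and XBP1 null turned to 0.01 with quantile normalization. These 76 genes mostly have lower signals than the 34 cytosolic genes, and the part of signal level in the contrast was not tested. The comparisons of double with Matn3 mutant and of Matn3 mutant with wild type share the Matn3 mutant array.

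**Figure D4:**
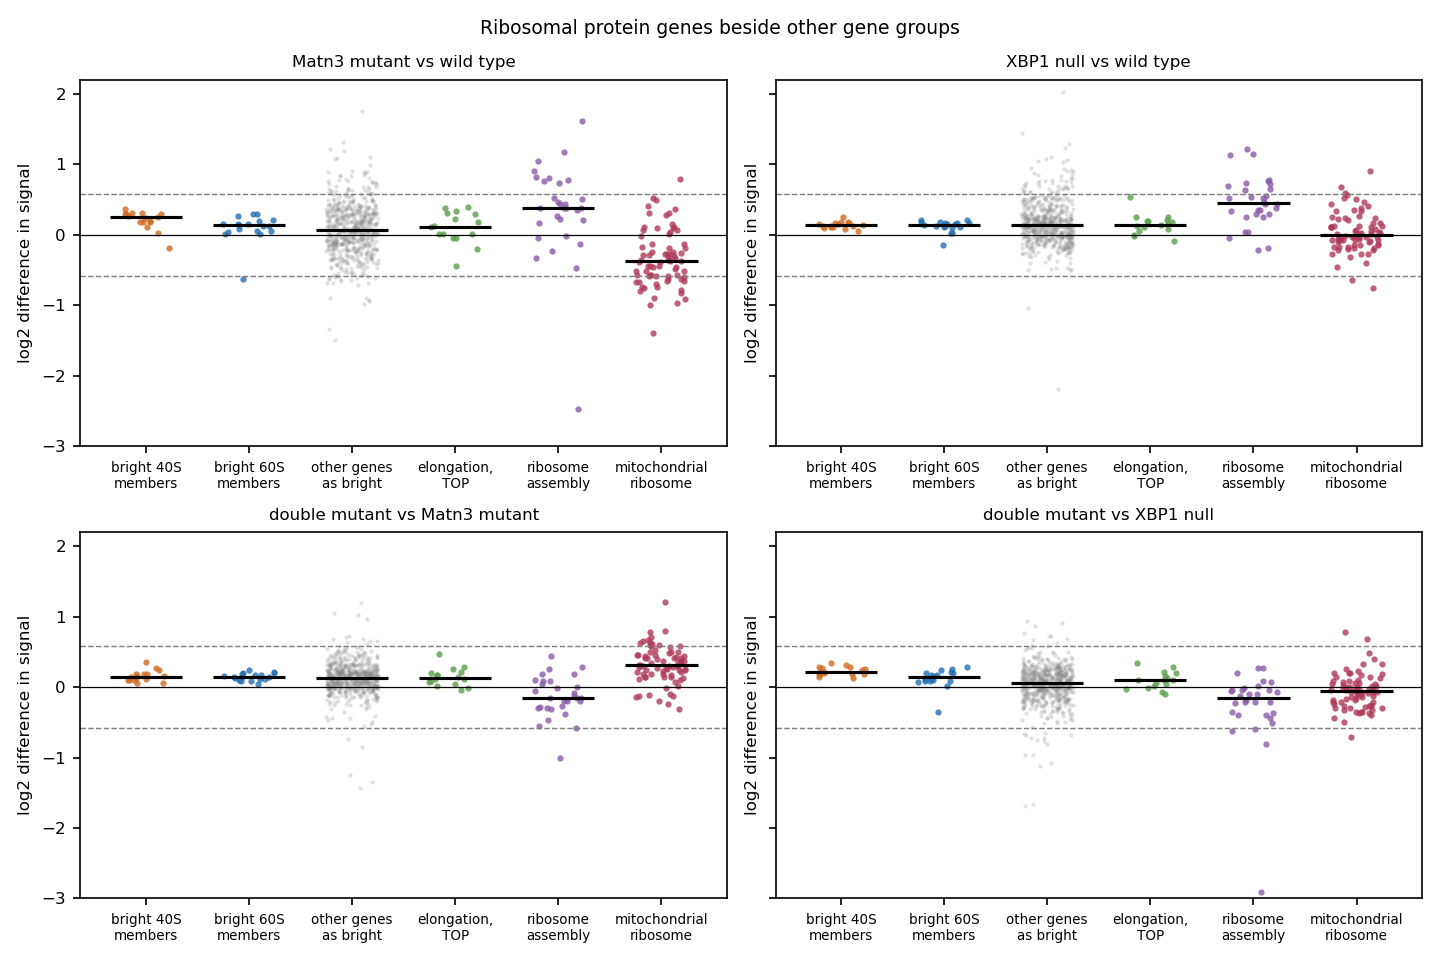
Differences in signal on the log2 scale in the 4 comparisons for genes of both ribosomal subunits with high signals, 633 other genes with signals as high, elongation factors and other genes with TOP mRNAs, ribosome assembly genes and mitochondrial ribosomal proteins; each point is a gene, black bars give the median of each group, and a 1.5-fold difference is dashed. Ribosomal proteins other than Rplp0 cluster near 0 in every panel, assembly genes have medians of 0.39 and 0.45 against the wild type, and mitochondrial ribosomal proteins have a median of -0.37 between Matn3 mutant and wild type.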

How the data were processed

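Linear intensities deposited by the authors for 45037 probe sets of a 3′ expression array were used, from 4 arrays, 1 for each genotype. RNA was extracted with Trizol after collagenase digestion, and 3 extractions were pooled. The sources used here do not state how probe signals were summarized or arrays normalized. The authors named PPLR, which needs errors of single probes and was not applied. The precision is limited by the number of arrays. Signals under 1 were raised to 1, log2 was taken, and no scaling was added. A single gene is named by 34945 probe sets, several genes by 932 and none by 9160. Each gene was read from the probe set of highest mean log2 among those that name it alone. Such a probe set is called its own by this naming only, and its binding to transcripts of other genes was not tested. Among those of the cytosolic ribosomal protein genes, 12 were of the _x_at kind (Rps29, Rpl13a and Rpl38 among them) and 2 of the _s_at kind. Of these genes, 15 are also named by a probe set that names several. Control probe sets were left out.

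The 4 comparisons set the Matn3 mutant and the XBP1 null against wild type and the double mutant against each single change, with genes counted at 1.5-fold and 1.2-fold. An additive model was fitted in limma 3.58.1 (R 4.3.3) with eBayes, a trend on intensity and Benjamini-Hochberg adjustment, threshold 0.05, and tested on simulated data. The simulation checked its mean effect estimates, and its power to call probe sets is not reported here. Tables and figures were made with Python 3.11.15, numpy 2.4.6, pandas 2.3.3 and matplotlib 3.10.9. The members, gene lists and the split at a mean log2 of 12 were chosen with earlier results of these data known. Named are members past 1.5-fold, the 5 largest differences each way per comparison, the 5 highest and lowest signals, stalk genes, paralogs with their core genes, X-linked members, members with discordant probe sets, and up to 4 genes of each other list. Coordinates, matched by gene identifier for 48 genes, and start sequences, matched by symbol for 42, are from RefSeq (GRCm38.p6). Alternatives were the scaling, the floor, the probe set, the signal filter and the fold.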

Additional observations from a re-analysis of the deposited data

Results flagged for a closer look

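Rpl7l1, a paralog of Rpl7, differed in opposite directions with the Matn3 mutation in mice with and without XBP1. The log2 difference was 0.33 between Matn3 mutant and wild type and -0.27 between double mutant and XBP1 null, each from 1 array per genotype, and the difference between them was not tested. Its 3 probe sets gave 0.04 to 0.52 for the first and -0.47 to -0.12 for the second.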

How the results depend on the processing

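Counts over 1.5-fold were small, so a change of 1 gene shows as a shift. For Matn3 mutant against wild type, the number higher (1) became 3 without probe sets of the _s_at or _x_at kind, 0 with genes of high signal only, 15 of 213 probe sets when all that name a ribosomal protein gene entered, and 12 at 1.2-fold; the number lower (2) became 1 with a floor at the 25th percentile, with genes at or above the median intensity or with genes of high signal, 6 with all probe sets and 5 at 1.2-fold. For XBP1 null against wild type, 0 higher became 1 with the median over probe sets or without _s_at and _x_at, 6 with all probe sets and 2 at 1.2-fold, and 0 lower became 1 with arrays centred on the top 10% of genes, 3 with all probe sets and 1 at 1.2-fold. For double against Matn3 mutant, 0 higher became 5 with all probe sets and 7 at 1.2-fold, and 0 lower became 1 without _s_at and _x_at and 5 with all probe sets. For double mutant against XBP1 null, 1 higher became 0 with the median over probe sets or with high signals, 8 with all probe sets and 11 at 1.2-fold; 2 lower became 1 with quantile normalization, with the floor, with the centring or with the median filter, 0 with high signals, 6 with all probe sets and 4 at 1.2-fold.

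Median differences of the 48 genes went with quantile normalization from 0.15 to 0.011 (Matn3 mutant against wild type), from 0.13 to 0.029 (XBP1 null against wild type), from 0.15 to 0.050 (double against Matn3 mutant) and from 0.18 to 0.039 (double mutant against XBP1 null). With that centring, they went to -0.081 for XBP1 null against wild type, a reversal, and from 0.15 to 0.016 for double against Matn3 mutant. The difference of Rpl27a between double mutant and XBP1 null reversed to -0.043 with the median over its 2 probe sets. The order of arrays, in 24 of 48 genes, held in 7 with quantile normalization, 1 with the centring and 109 of 213 with all probe sets. The cause of these shifts was not tested. The use of high signals only and of all probe sets was chosen after seeing the data. No paired analysis was possible because each genotype has 1 array; for the same reason no replicate could be left out. With no replicate arrays, a difference as small as the common one has no measured error, and signals near the floor give no direction.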
